A study of Mus musculus with 7 samples.

Results

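The comparison described here sets spleen monocytes of the mouse that were given R848 against spleen monocytes that were left unstimulated. It holds 3 of the 7 arrays of the series, taken by their labelled treatment: 1 R848 array (2 µg/ml, mouse 1) and 2 unstimulated arrays, 1 from mouse 1 and 1 from mouse 2. Stimulation lasted 3 h, and all cells were selected monocytes of the wild type for EPCR (encoded by Procr, the receptor of protein C on endothelium). The labels do not state the strain, age and sex of the mice, how the monocytes were selected or how long the unstimulated cells were cultured. The remaining 4 arrays served for the estimate of spread and for direct comparisons: 2 of HL7G, an antiphospholipid antibody (400 ng/ml, mouse 1 and mouse 2), 1 of CpG B (2.5 µM, mouse 1) and 1 of poly I:C (1 µg/ml, mouse 1). R848 has no replicate, so every value below rests on a single treated sample of a single animal.

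R848, also called resiquimod, is a small imidazoquinoline that enters cells and activates TLR7, a receptor for single-stranded RNA in endosomes. TLR7 reaches the endosome with the help of the chaperone UNC93B1 and signals through the adaptor MyD88 and the IRAK kinases. The signal splits into a branch that frees NF-kB and drives cytokine and chemokine genes and a branch that activates interferon regulatory factors, which drive type I interferon and, through it, interferon-stimulated genes.

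Levels are RMA values on the log2 scale, and the unstimulated levels are always given in the order mouse 1, mouse 2. A difference is the R848 level minus the mean of the unstimulated levels, with its standard error from a limma fit over all 7 arrays. That fit takes the single R848 array to vary like the groups that have replicates. Differences from each unstimulated array are given as well, because those arrays did not read alike. The median level of 17 abundant and housekeeping transcripts was 5.54 on the unstimulated array of mouse 1 and 6.43 on that of mouse 2, against 7.59 on the R848 array and 7.20 to 8.30 on the other 4. Over all genes tested, the median absolute difference between the unstimulated arrays was 0.217. Many unstimulated levels lay under 5, close to the array medians of 4.40 to 4.54, and may be near background. For genes with such a level the log2 difference is given with no fold.

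No gene passed the test: of 11127 genes, 0 (0%) had a limma adjusted p under 0.05, and 2551 had an unadjusted p under 0.05, 1905 higher and 646 lower with R848, where 556.4 would be expected by chance. The lowest adjusted p was 0.0855, shared by 186 genes. With the mouse as a block in the fit, 5 genes were called: Rny1, Rps13, Rps20 and Snord70 higher and Vmn1r129 lower, at limma adjusted p from 0.0377 to 0.0427. The fit called 137 genes without the unstimulated array of mouse 2 and 0 without that of mouse 1. It called 1542 without either HL7G array, and the same number with only the R848 and unstimulated arrays, since the spread then came from the unstimulated pair alone. The results below are therefore values and counts, and no gene was called in the fit that gives the differences and errors below. With a variance trend, 95 genes were called, most of them higher with R848. Among these 95, Ifi209, Irf9, Casp8, Nampt, Ddx3x, Hsph1 and Rps13 were higher. Stfa1 and Vmn1r129 were lower. The limma adjusted p of these named genes ran from 0.0131 to 0.0473. After cyclic loess 51 were called, most of them lower with R848. Among these 51, Ifi209 and Rps13 were higher. Stfa1, Btbd35f12, Zfp992 and Vmn1r129 were lower. Here the limma adjusted p of the named genes ran from 0.0107 to 0.0395.

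The size of the differences was uneven in direction. The R848 array read 1003 genes (9.01%) at least 2-fold above both unstimulated arrays and 158 (1.42%) at least 2-fold below both, so that 86.4% of these lay above. For 976 of the 1003 genes, every other stimulated array also lay above both unstimulated arrays. R848 was the highest of the 7 arrays for 120 of them. It lay above HL7G of mouse 1 for 131 and of mouse 2 for 749, above CpG B for 835 and above poly I:C for 933. By any amount, 5375 genes (48.3%) lay above both unstimulated arrays, 3853 lay below both and 1899 lay between them. The counts of each gene list below are to be read against these shares of all genes tested. The split depended on the scaling: 79.1% lay above after median centring, 66% after quantile normalization and 63.6% after cyclic loess. Against the unstimulated array of mouse 1 alone, 1608 genes lay at least 2-fold above and 283 below, and against that of mouse 2 these were 1143 and 253. No gene lay at least 2-fold above 1 of them and at least 2-fold below the other.

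**Figure D1:**
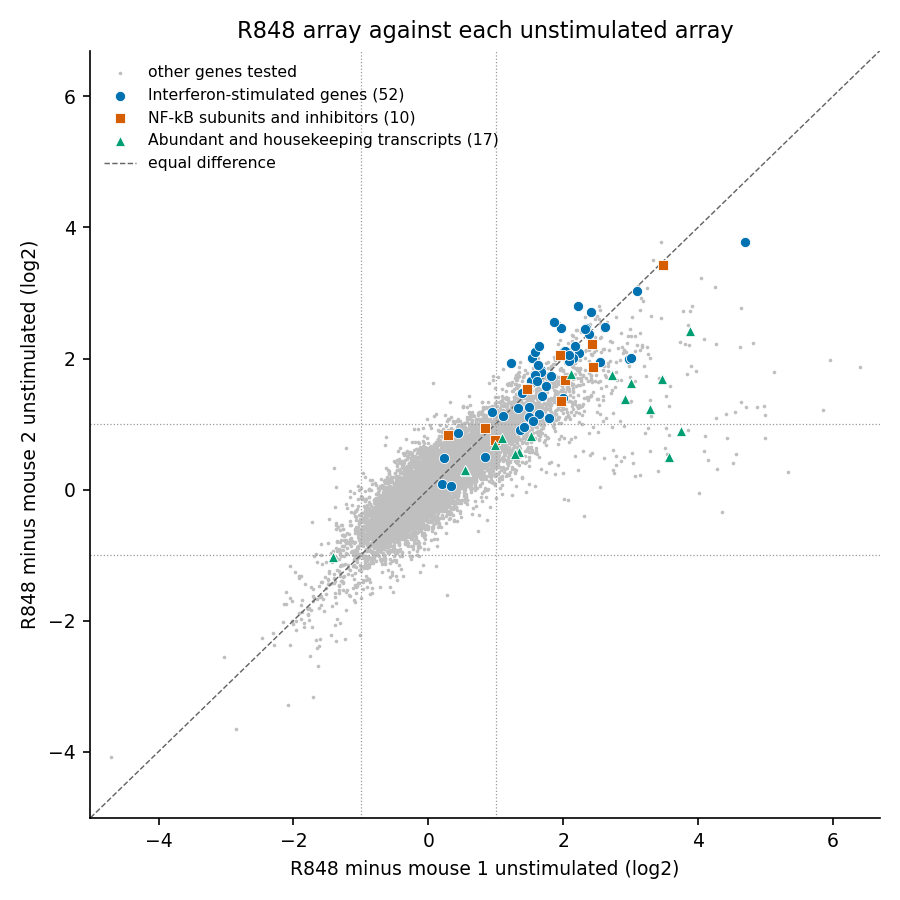
Difference of the R848 array from the unstimulated array of mouse 1 (x axis, log2) and from that of mouse 2 (y axis, log2), 1 point per gene tested. The dashed line marks equal differences and the dotted lines a 2-fold difference. The 52 interferon-stimulated genes (circles) lie near the dashed line, whereas most of the 17 abundant transcripts (triangles) lie below it, with a median of 2.12 against mouse 1 and 0.81 against mouse 2.

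The sequences upstream of 4 genes are shown because the interferon-stimulated genes and the NF-kB genes, described below, are known to be read through short elements in their promoters. These elements were searched on both strands in the promoter windows of RefSeq (GRCm38.p6), 250 bases before to 50 after each start: GAAANNGAAA, the core of the interferon-stimulated response element (ISRE), and GGGANTTTCC, a kappaB sequence bound by NF-kB. The genes were picked after their values were seen. Capitals mark the matches, and the stretches run from 250 bases before the start up to the start, in the direction of the gene. Ifit1 lies at chr19:34640639-34640888 on the plus strand, Stat2 at chr10:128270248-128270497 on the plus strand, Cxcl10 at chr5:92348890-92349139 on the minus strand and Nfkbia at chr12:55492648-55492897 on the minus strand.
Ifit1: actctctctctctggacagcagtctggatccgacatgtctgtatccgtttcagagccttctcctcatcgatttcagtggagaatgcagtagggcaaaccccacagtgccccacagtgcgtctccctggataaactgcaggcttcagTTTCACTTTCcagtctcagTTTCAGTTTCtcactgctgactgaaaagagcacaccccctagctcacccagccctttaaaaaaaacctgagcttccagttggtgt
Stat2: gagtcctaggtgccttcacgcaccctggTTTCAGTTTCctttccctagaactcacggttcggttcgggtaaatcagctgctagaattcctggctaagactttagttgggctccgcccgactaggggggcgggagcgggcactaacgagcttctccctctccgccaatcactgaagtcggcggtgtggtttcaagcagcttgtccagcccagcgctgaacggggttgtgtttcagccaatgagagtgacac
Cxcl10: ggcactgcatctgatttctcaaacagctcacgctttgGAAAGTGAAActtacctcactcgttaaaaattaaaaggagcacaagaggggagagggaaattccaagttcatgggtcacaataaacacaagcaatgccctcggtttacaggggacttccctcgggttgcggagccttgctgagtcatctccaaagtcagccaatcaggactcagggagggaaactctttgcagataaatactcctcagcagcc
Nfkbia: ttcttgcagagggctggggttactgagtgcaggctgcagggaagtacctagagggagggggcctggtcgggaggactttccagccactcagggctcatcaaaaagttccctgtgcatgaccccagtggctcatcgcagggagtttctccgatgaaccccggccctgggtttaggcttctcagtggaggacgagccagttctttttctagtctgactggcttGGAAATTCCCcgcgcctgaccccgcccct

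The ISRE letters occurred in 51.3% of the promoters of tested interferon-stimulated genes (20 of 39 with a promoter in the table), and in 3.99% of the promoters of all 27025 RefSeq genes. Ifit1 carried 2 matches, 104 to 95 and 85 to 76 bases before the start. Among the 1003 genes at least 2-fold above both unstimulated arrays, 785 had a promoter and 58 of these (7.39%) held the ISRE letters. Among the 158 genes at least 2-fold below, 3 of 104 (2.88%) did, and among all genes tested 325 of 8586 (3.79%). The 1003 genes include 43 of the 52 interferon-stimulated genes tested, so their share overlaps with that of the list. How many of the 58 came from the list was not counted. The kappaB letters were found in 2 of 8 promoters of the NF-kB list (25%) and in 0.466% of all RefSeq genes. They occurred in 7 of the 785 promoters of the higher genes (0.892%) and in 51 of the 8586 promoters of all genes tested (0.594%). The higher genes include 7 of the 10 NF-kB genes tested, so these shares overlap as well. A match describes the letters of the window and does not show that a factor was bound.

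The receptor of R848 read dim. Tlr7 read 3.77 and 3.51 on the unstimulated arrays and 4.08 with R848, all under the level of 5 that the filter asked of at least 1 array, and it was tested only because of HL7G. Its difference was 0.43 ± 0.39 (limma adjusted p = 0.545). Tlr8 read 3.69 and 3.97 unstimulated and 3.95 with R848, and Tlr3 read 3.54 and 3.53 against 3.49. Neither reached the filter. Tlr9, the receptor for CpG DNA, read 5.57 and 5.30 unstimulated and 6.30 with R848, a difference of 0.87 ± 0.35.

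Several genes that load or process endosomal Toll-like receptors read higher with R848. Of 12 genes tested in this list, which also holds Tlr7, Tlr9 and Cd14, 6 lay at least 2-fold above both unstimulated arrays. That is 50%, against 9.01% of all genes tested. By some amount, 11 lay above both, against 48.3% of all genes tested. The median difference was 1.13, against 0.09 over all genes tested. Hsp90b1, the endoplasmic reticulum chaperone GP96 that folds Toll-like receptors, read 4.63 and 5.51 unstimulated and 7.15 with R848 (2.08 ± 0.39). Its partner Cnpy3 read 4.76 and 5.01 against 6.30. Unc93b1, which escorts TLR7 to endosomes, read 4.56 and 5.06 against 6.35. Slc15a3, a histidine and peptide transporter of endosomes, read 4.12 and 4.14 against 5.66. The proteases Lgmn and Ctss, which cut endosomal receptors and antigens, differed by 1.39 ± 0.29 and 1.64 ± 0.57. Ctsl, another cathepsin, went the other way within its error, at -0.23 ± 0.26. In these genes the R848 array lay above both unstimulated arrays without overlap, Ctsl apart. After cyclic loess 2 of the 12 genes lay 2-fold above both.

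The adaptors and kinases that carry the signal had smaller differences. Of 19 tested, 17 lay above both unstimulated arrays, against 48.3% of all genes tested. At least 2-fold above both lay 2 (10.5%), close to the 9.01% of all genes tested, and 0 after cyclic loess. The median difference was 0.67. Myd88, the adaptor itself, read 4.77 and 4.78 unstimulated and 5.67 with R848, or 0.90 ± 0.37. Traf6, the ubiquitin ligase downstream of the IRAK kinases, read 4.12 and 4.22 against 4.91. Irak1 differed by 0.93 ± 0.39, Irak2 by 0.14 ± 0.28 and Irak3, the inhibitory family member IRAK-M, by 0.37 ± 0.26. The largest value in the group belonged to Pik3ap1, the adaptor BCAP that links Toll-like receptors to PI3 kinase, at 5.73 and 5.95 unstimulated and 7.91 with R848 (2.07 ± 0.56). Ikbke, the kinase IKK-epsilon, read 5.36 and 5.64 against 6.97. Tirap, which serves surface receptors, was not tested.

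The NF-kB family read higher throughout. All 10 genes tested lay above both unstimulated arrays and 7 lay at least 2-fold above both, against 9.01% of all genes tested. The median difference was 1.76, and 1.49, 1.65 and 1.23 after quantile normalization, median centring and cyclic loess. Nfkbiz, an atypical inhibitor that acts as a co-activator of secondary response genes such as Il6, read 4.46 and 4.53 unstimulated and 7.95 with R848. That is a difference of 3.49 from mouse 1 and 3.42 from mouse 2, or 3.45 ± 0.68 (limma adjusted p = 0.0863).

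Among the subunits, Nfkb2, the precursor of p52, read 5.26 and 5.47 against 7.69 (2.33 ± 0.50). Rel, the subunit c-Rel, read 4.50 and 5.07 against 6.95 (2.16 ± 0.57). Rela, the p65 subunit, read 4.70 and 4.63 against 6.16 (1.50 ± 0.29). Relb lay closer to its controls, at 5.46 and 5.69 against 6.44. The inhibitors that NF-kB itself induces were high as well. Nfkbia, which encodes IkB-alpha and whose promoter above holds a kappaB match, read 6.35 and 6.97 against 8.32. Nfkbie differed by 2.00 ± 0.47 and Nfkbid by 1.85 ± 0.36. Nfkb1 was not matched to a probe set of its own.

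The brakes on this pathway lay above both unstimulated arrays in 14 of 14 genes, against 48.3% of all genes tested, with a median of 0.90. At least 2-fold above both lay 4 (28.6%, against 9.01% of all genes tested), and 1 after cyclic loess. Tnfaip3, the deubiquitinase A20, read 5.60 and 5.72 unstimulated and 7.20 with R848 (1.54 ± 0.51). Zfp36, the protein TTP that marks cytokine mRNAs for decay, read 5.21 and 5.30 against 6.53 (1.28 ± 0.29). Its relative Zfp36l1 read 4.95 and 5.18 against 6.57. Zc3h12a, the RNA-cutting enzyme Regnase-1, differed by 0.98 ± 0.37. The MAP kinase phosphatases showed no such shift: none of 7 lay 2-fold above both arrays, and their median was -0.01. Dusp1, the member best known from Toll-like receptor responses, read 5.72 and 5.58 unstimulated and 5.64 with R848.

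The immediate-early factors split. Of 23 tested, 5 (21.7%, against 9.01% of all genes tested) lay at least 2-fold above both unstimulated arrays. By some amount, 15 lay above both and 5 below both. Myc, a driver of growth, read 5.97 and 6.02 unstimulated and 8.16 with R848, or 4.48-fold (2.16 ± 0.55). The AP-1 members Junb, Jun and Jund differed by 1.63 ± 0.34, 1.54 ± 0.70 and 1.20 ± 0.50. Atf3, an inhibitor of Toll-like receptor responses, differed by 0.90 ± 0.39. The classical early genes Fos, Egr1 and Nr4a1 differed by 0.50, 0.12 and 0.21, less than 2 of their standard errors. Fosb read 5.24 and 4.74 against 4.72. After cyclic loess none of the 23 lay 2-fold above both unstimulated arrays.

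**Figure D2:**
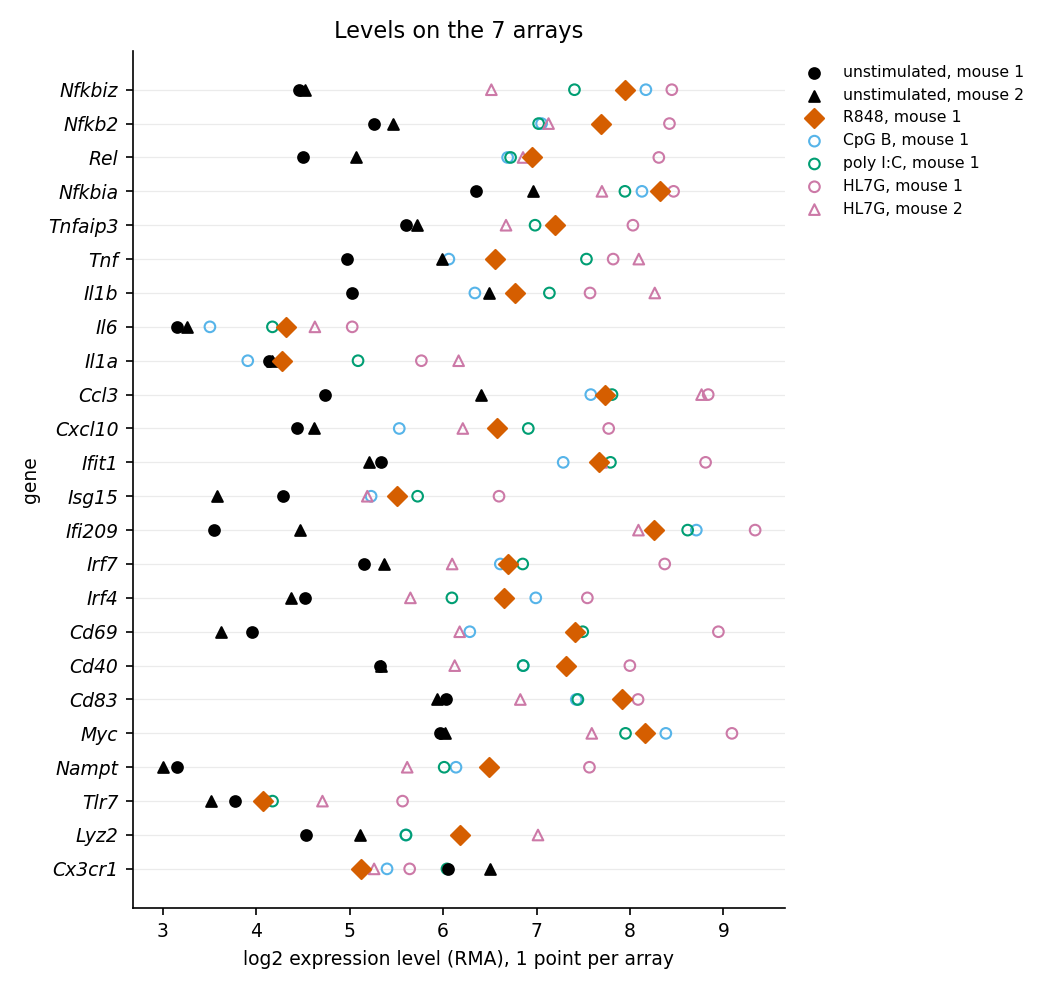
Log2 expression level (x axis) of 24 genes on each of the 7 arrays, 1 symbol per array. The R848 array (diamond) lies above both unstimulated arrays (filled black) for the NF-kB genes, with Nfkbiz at 7.95 against 4.46 and 4.53, and below them for Cx3cr1, at 5.13 against 6.05 and 6.50.

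The inflammatory cytokines had smaller differences. Of 11 tested, 1 lay at least 2-fold above both unstimulated arrays (9.09%, against 9.01% of all genes tested), and the median difference was 0.48. That gene was Il6, which read 3.16 and 3.26 unstimulated and 4.32 with R848 (1.11 ± 0.29), all below the filter level, and it fell short of 2-fold under each other scaling. Tnf read 4.97 and 5.99 unstimulated and 6.56 with R848, which lies 1.59 above mouse 1 and 0.56 above mouse 2. Il1b read 5.02 and 6.50 against 6.77, or 1.75 above mouse 1 and 0.27 above mouse 2. For both cytokines the gap between the unstimulated arrays was larger than the gap from mouse 2 to R848.

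Il12b, the p40 subunit that IL-12 and IL-23 share, read 4.97 and 4.94 unstimulated and 5.64 with R848 (0.69 ± 0.28). Il12a, the p35 subunit, differed by 0.48 ± 0.27 and Ebi3, the shared subunit of IL-27 and IL-35, by 0.94 ± 0.55. Il1a read 4.13 and 4.16 against 4.28, a difference of 0.13 ± 0.29 whose sign turned after quantile normalization. Osm and Lif, both of the IL-6 family, lay below both unstimulated arrays, at -0.51 ± 0.31 and -0.46 ± 0.26. Il10 read 4.41 and 3.91 against 4.39 and Il23a read 4.69 and 4.43 against 4.18. Neither was tested.

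Among the chemokines, 3 of the 9 tested (33.3%, against 9.01% of all genes tested) lay at least 2-fold above both unstimulated arrays. These were Ccl3, Cxcl10 and Ccl4. Ccl3, a chemokine that attracts leukocytes, read 4.74 and 6.41 unstimulated and 7.74 with R848 (2.16 ± 0.60), 3.00 above mouse 1 and 1.33 above mouse 2. Cxcl10, an interferon-induced ligand of CXCR3, read 4.44 and 4.61 against 6.57 (2.05 ± 0.58). Ccl4 read 6.10 and 6.15 against 7.22 (1.10 ± 0.44), and Ccl5 read 6.28 and 6.71 against 7.42 (0.92 ± 0.38). After cyclic loess the median of the list was 0.02, 1 of the 9 lay 2-fold above both, and the signs of Ccl4 and Ccl5 turned. Ccl2 and Cxcl2, which draw monocytes and neutrophils, lay below both unstimulated arrays: Ccl2 read 5.03 and 5.34 against 4.77, and Cxcl2 read 4.63 and 5.27 against 4.49. Cxcl1 and Cxcl9 did not reach the filter, at 4.67 and 4.29 with R848.

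The interferon genes themselves read no higher. None of the 9 tested lay 2-fold above both unstimulated arrays, 6 lay below both, and their median was -0.33. Ifnb1 read 3.32 and 3.11 unstimulated and 2.93 with R848 and was not tested. Ifna4 read 6.26 and 5.95 against 5.77, and Ifna6 read 5.18 and 5.32 against 4.29. Members of this family are near-identical copies, so a probe set may read several of them. Of the receptor chains, Ifnar1 differed by 0.17 ± 0.35 and Ifnar2 by 0.66 ± 0.38.

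Of the lists examined, that of the interferon-stimulated genes held the most genes at least 2-fold above both unstimulated arrays. All 52 tested lay above both unstimulated arrays and 43 (82.7%) lay at least 2-fold above both, against 9.01% of all genes tested. The median difference was 1.74, with 1.67 against mouse 1 and 1.81 against mouse 2, so both unstimulated arrays gave about the same value. After median centring, quantile normalization and cyclic loess the counts were 40, 37 and 31, with medians of 1.64, 1.46 and 1.26. Of the 52 genes, 38 had an unadjusted p under 0.05.

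Ifi209, a member of the interferon-induced p200 family, read 3.55 and 4.47 unstimulated and 8.25 with R848 (4.24 ± 0.57, limma adjusted p = 0.0855). Parp14, a mono-ADP-ribosyltransferase, read 5.14 and 5.21 against 8.24 (3.06 ± 0.62). The sensors of viral RNA lay high: Ifih1, which encodes MDA5, read 3.77 and 3.90 against 6.39 (2.55 ± 0.58), and Ddx58, which encodes RIG-I, read 4.57 and 4.72 against 6.81 (2.16 ± 0.57). Dhx58, their relative LGP2, differed by 1.75 ± 0.65.

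Genes of antiviral effectors followed. Ifit1, which binds viral RNA ends and carries the pair of ISRE matches above, read 5.33 and 5.20 unstimulated and 7.67 with R848 (2.40 ± 0.45). Mx2 read 4.29 and 3.99 against 6.69, and Mx1 read 3.94 and 3.44 against 5.91. Both encode GTPases that block viruses. Samhd1, which depletes nucleotides, read 4.92 and 5.92 against 7.93. Rsad2, the radical SAM enzyme viperin, differed by 1.59 ± 0.37, and Bst2, the tether that holds budding virions, by 1.92 ± 0.97. The guanylate-binding proteins differed among themselves, with Gbp9 at 2.39 ± 0.48, Gbp5 at 2.24 ± 0.81, Gbp4 at 0.66 ± 1.03 and Gbp3 at 0.36 ± 0.81. The signs of the last pair turned with the mouse as a block. Irgm1, an immunity-related GTPase, read 4.05 and 4.06 against 6.43.

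Isg15, a ubiquitin-like modifier, read 4.28 and 3.58 unstimulated and 5.51 with R848 (1.58 ± 0.58). Usp18, the protease that removes ISG15 and dampens the interferon receptor, read 5.54 and 4.97 against 7.77 (2.52 ± 0.59). At the low end lay Ifit3, at 6.21 and 6.32 against 6.40 (negative after quantile normalization and cyclic loess), and Ch25h, the enzyme that makes 25-hydroxycholesterol, at 4.71 and 4.99 against 5.05.

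Genes of the IRF and STAT factors, only some of which drive interferon-stimulated genes, were higher too. All 13 tested lay above both unstimulated arrays, with a median of 1.50. At least 2-fold above both lay 9 of them (69.2%, against 9.01% of all genes tested). Stat2 and Irf9 encode subunits of a complex that binds the ISRE. Stat2 read 4.90 and 4.70 unstimulated and 7.45 with R848 (2.65 ± 0.53). Irf9 read 4.69 and 4.52 against 6.46 (1.86 ± 0.26, limma adjusted p = 0.0855). Irf5 was not matched to a probe set of its own. Irf7, the factor that amplifies interferon expression, read 5.16 and 5.37 against 6.69 (1.43 ± 0.79), and Irf1 read 4.91 and 5.07 against 6.67 (1.68 ± 0.30).

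Irf8, a factor of monocyte, dendritic and B cell development, read 5.44 and 5.42 unstimulated and 7.79 with R848 (2.36 ± 0.64). Irf4 read 4.52 and 4.38 against 6.65 (2.20 ± 0.67). Stat3, which carries IL-6 and IL-10 signals, read 5.16 and 5.16 against 6.84. Irf3, which is known to be regulated mainly by phosphorylation, differed by 0.82 ± 0.28.

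A list of 16 genes held interferon receptor chains, the kinases Jak1, Jak2 and Tyk2, and feedback genes. Of these 16, 3 lay at least 2-fold above both unstimulated arrays (18.8%, against 9.01% of all genes tested). By some amount, 14 lay above both. The count of 3 was 1 after median centring, 1 after quantile normalization and 0 after cyclic loess. Pim1, a survival kinase, read 6.46 and 6.70 unstimulated and 8.61 with R848 (2.03 ± 0.54). Jak1 read 5.14 and 6.08 against 7.10, and Ptpn6, the phosphatase SHP-1, read 5.64 and 5.53 against 6.70. Socs3, the inhibitor of IL-6 signalling, read 5.37 and 5.57 against 6.33 (0.86 ± 0.26). Socs1 differed by 0.52 ± 0.31.

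Costimulatory and activation markers varied widely in the size of their differences: 13 lay above both unstimulated arrays and 0 below both. Of 15 tested, 9 (60%, against 9.01% of all genes tested) lay at least 2-fold above both unstimulated arrays, and the median was 1.22. After cyclic loess these were 4 of 15, with a median of 0.79. Cd69, an early activation receptor that holds cells in tissue, read 3.95 and 3.62 unstimulated and 7.41 with R848 (3.62 ± 0.95). Cd40, the receptor for T cell help, read 5.32 and 5.33 against 7.32 (1.99 ± 0.67). Cd83, a marker of mature antigen-presenting cells, read 6.03 and 5.94 against 7.92. Ccr7, which guides cells to lymph nodes, read 5.78 and 6.33 against 8.02 (1.97 ± 0.42). Cd274, the ligand PD-L1, differed by 1.33 ± 0.54. Cd86, a ligand of CD28, read 4.11 and 4.51 against 4.20 and so lay between the unstimulated arrays. Cd80, the other CD28 ligand, read 4.01 and 4.27 against 4.95, just under the filter level.

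Antigen presentation genes of class I lay above both unstimulated arrays in 14 of 14 cases, with a median of 1.35. At least 2-fold above both lay 9 of them (64.3%, against 9.01% of all genes tested). The count of 9 was 7 after median centring, 4 after cyclic loess and 3 after quantile normalization, and the median was 0.45 after cyclic loess. B2m, the light chain, read 5.74 and 7.90 unstimulated and 9.71 with R848, 3.97 above mouse 1 but 1.81 above mouse 2. H2-K1, a heavy chain, read 6.16 and 7.68 against 8.55, and here the difference from mouse 2 was 0.87. Tap1, the peptide transporter, read 5.83 and 5.84 against 6.95 (1.12 ± 0.35), and Psmb10, an immunoproteasome subunit, read 5.84 and 5.59 against 7.10 (1.38 ± 0.31). Among the class II genes, 2 of 7 (28.6%, against 9.01% of all genes tested) lay at least 2-fold above both. H2-Ab1 read 5.16 and 5.93 against 8.06 (2.52 ± 0.38), and H2-Aa read 4.20 and 5.11 against 7.15 (2.49 ± 0.58). Ciita, their master regulator, read 5.91 and 5.95 against 5.61.

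The effector enzymes of inflammatory myeloid cells were mixed. Of 21 tested, 4 (19%, against 9.01% of all genes tested) lay at least 2-fold above both unstimulated arrays. By any amount, 10 lay above both and 5 below both. The median of 0.11 was -0.04 after quantile normalization. Nampt, which makes NAD from nicotinamide, read 3.15 and 3.00 unstimulated and 6.50 with R848 (3.42 ± 0.69). Subunits of the phagocyte NADPH oxidase were high: Cybb read 4.41 and 4.87 against 7.02 (2.38 ± 0.47) and Ncf1 read 5.02 and 5.51 against 7.14 (1.87 ± 0.41). Hk2, an enzyme of glycolysis, read 5.18 and 5.31 against 6.88. Sod2, the mitochondrial superoxide dismutase that NF-kB induces, read 4.37 and 5.21 against 6.03. Nos2, which makes nitric oxide, read 5.46 and 5.13 against 4.76. Ptgs2, the inducible cyclooxygenase, read 4.32 and 4.47 against 4.34, and Acod1, which makes itaconate, read 5.05 and 5.57 against 5.91 (0.60 ± 0.31).

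In the inflammasome list, 2 of 11 genes (18.2%, against 9.01% of all genes tested) lay at least 2-fold above both unstimulated arrays. The count was 1 after cyclic loess, median centring or quantile normalization. Casp8, a caspase of extrinsic apoptosis, read 4.28 and 4.54 unstimulated and 6.67 with R848 (2.26 ± 0.40). Casp4, the sensor of cytosolic lipopolysaccharide, read 3.39 and 3.81 against 4.82, all under the filter level. It was tested only because of the HL7G array of mouse 1. Nlrp3, whose priming is a textbook result of Toll-like receptor signals, read 4.52 and 4.43 against 4.49 and was not tested. Of 15 survival and death genes, 5 (33.3%, against 9.01% of all genes tested) lay at least 2-fold above both, and 3 after cyclic loess. Each of the 5 opposes cell death. Mcl1 read 5.79 and 6.19 against 7.77 (1.78 ± 0.38), Cflar, the inhibitor c-FLIP, read 4.60 and 4.92 against 6.57, and Bcl2a1a read 4.16 and 4.48 against 6.18. Birc3 and Birc2, the ubiquitin ligases cIAP2 and cIAP1, differed by 1.48 ± 0.47 and 1.21 ± 0.45. Bcl2a1a has near-identical copies, which its probe set may also read.

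The coagulation genes lay near their controls, with a median of 0.02 over 10 tested. At least 2-fold above both lay 1 gene (10%, close to the 9.01% of all genes tested). F3, tissue factor, the starter of coagulation, read 4.92 and 4.86 unstimulated and 5.09 with R848 (0.20 ± 0.27). Procr, which encodes EPCR, read 5.29 and 5.18 against 5.23. The gene past 2-fold was Pdia3, a disulfide isomerase of the endoplasmic reticulum, at 4.76 and 4.97 against 6.19. F10, coagulation factor X, differed by 0.73 ± 0.34, and F2r, the thrombin receptor PAR1, by -0.56 ± 0.28. Of 13 sterol genes, 1 lay at least 2-fold above both (7.69%, against 9.01% of all genes tested). That gene was Hmgcs1, an early enzyme of cholesterol synthesis, at 4.63 and 4.62 against 6.35 (1.73 ± 0.35). Srebf2, the factor that drives that pathway, differed by 1.19 ± 0.36, and Abcg1, a cholesterol exporter, by -0.46 ± 0.26.

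**Figure D3:**
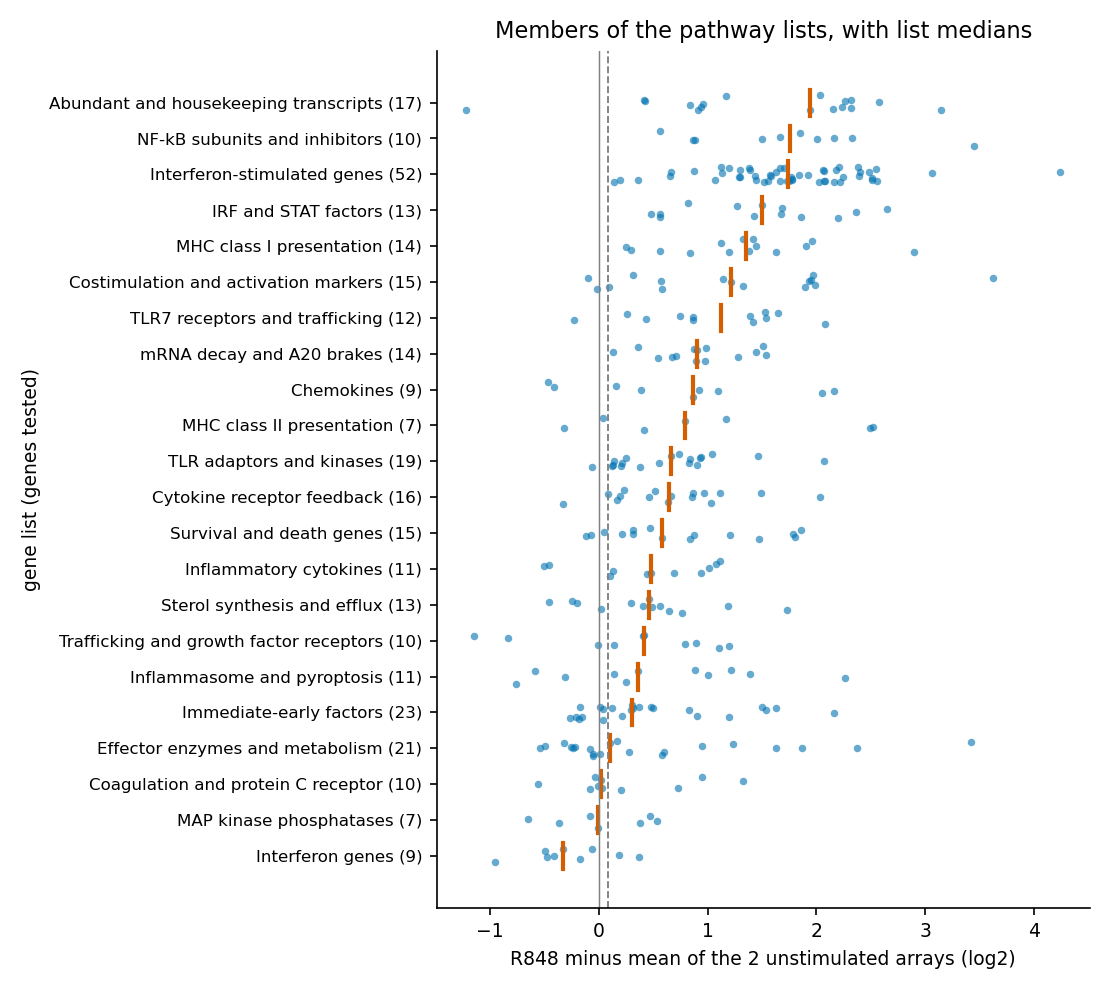
Difference between the R848 array and the mean of the unstimulated arrays (x axis, log2) for each tested gene of 22 lists (points, 1 per gene), with the list median as a vertical bar. The dashed line marks the median of all genes tested, 0.09. The list medians run from -0.33 for the interferon genes to 1.94 for the abundant transcripts, with the NF-kB genes at 1.76 and the interferon-stimulated genes at 1.74.

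Abundant and housekeeping transcripts, which were not listed as targets of TLR7, had a median difference of 1.94, above that of any other list. Of 17 tested, 7 (41.2%, against 9.01% of all genes tested) lay at least 2-fold above both unstimulated arrays. At least 2-fold below both lay 1 (5.88%, against 1.42% of all genes tested). Their difference depended on the control array, with a median of 2.12 against mouse 1 and 0.81 against mouse 2. Eef1a1, a translation factor, read 6.61 and 9.46 unstimulated and 10.36 with R848, 3.75 above mouse 1 and 0.90 above mouse 2. Fth1, the ferritin heavy chain, read 6.56 and 9.65 against 10.14, and Actb read 5.02 and 6.81 against 8.49. Ptprc, the leukocyte antigen CD45, read 4.06 and 5.44 against 7.06. Gapdh went the other way, at 9.13 and 8.75 against 7.72 (-1.22 ± 0.30). After cyclic loess the list's median was 0.56, and 2 of the 17 genes lay 2-fold above both unstimulated arrays. The part that this shift of abundant transcripts had in the values of the gene groups above was not tested.

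The markers of the labelled cell type were mostly dim. Of 19 monocyte markers with a probe set, 11 reached the filter. Those that did not include Ly6c2, Ccr2, Fcgr1, Fcgr4, Itgam and Adgre4, defining genes of classical or patrolling monocytes and myeloid cells. Ly6c2 read 3.74 and 4.10 unstimulated and 4.06 with R848, and Ccr2 read 4.09 and 4.07 against 3.99. Of the 11 tested, 3 (27.3%, against 9.01% of all genes tested) lay at least 2-fold above both unstimulated arrays and the median was 0.14. These were Ms4a4c, at 3.79 and 4.44 against 7.09 (2.98 ± 0.67), Lyz2, which encodes lysozyme, at 4.53 and 5.11 against 6.18 (1.36 ± 0.42), and Cebpb, a myeloid factor that stimuli also induce, at 4.73 and 4.82 against 5.95.

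Cx3cr1, the fractalkine receptor of patrolling monocytes, was the monocyte gene with the lowest difference: it read 6.05 and 6.50 unstimulated and 5.13 with R848 (-1.15 ± 0.32), 0.45 times its unstimulated level. Fcgr3, an activating Fc receptor, read 5.21 and 5.37 against 4.45 (-0.84 ± 0.26). Csf1r, the receptor for the monocyte growth factor M-CSF, read 4.86 and 5.36 against 5.25. Spi1, which encodes the myeloid factor PU.1, read 5.72 and 5.52 against 5.63. In RNA of a whole sample, fewer cells of a type and less RNA per cell cannot be told apart.

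Markers of other cell types went in both directions. Of 11 B cell markers tested, 10 lay above both unstimulated arrays, against 48.3% of all genes tested, and 4 at least 2-fold (36.4%, against 9.01%), with a median of 0.86. Their median level was 4.99 and 5.16 on the unstimulated arrays, 6.06 with R848, 6.47 and 6.48 with HL7G, 5.49 with CpG B and 6.08 with poly I:C. Fcer2a, the Fc receptor CD23, read 4.76 and 4.52 against 6.95 (2.31 ± 0.54), and Ms4a1, which encodes CD20, read 4.51 and 4.81 against 6.06 (1.40 ± 0.28). Of 11 T cell markers, 2 lay at least 2-fold above both (18.2%, and 1 gene under each other scaling): Il7r, the IL-7 receptor, at 4.35 and 4.59 against 6.52, and Cd3d, a chain of the T cell receptor complex, at 4.86 and 5.54 against 6.56. The median of the T cell list was 0.26. All 3 NK cell markers tested lay below both unstimulated arrays, with a median of -0.26. Of 5 neutrophil markers, 1 lay above both and 3 below both, with a median of -0.22. The medians of 5 conventional and 5 plasmacytoid dendritic cell markers were 0.03 and -0.16. In the latter list 2 genes lay at least 2-fold above both, Ly6d at 6.14 and 6.27 against 7.51 and Spib at 4.16 and 3.80 against 5.47, and both are also B cell genes. B cells express TLR7, and the genes Cd69, Cd40, Cd83, Ccr7, H2-Aa, Irf4 and Irf8 named above are also genes of B cells. The part that B cells had in those values was not tested.

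Large differences of single genes were not all from the response lists. Small RNAs and predicted loci are set aside here. Rabggtb, a subunit of the enzyme that prenylates Rab proteins, read 2.42 and 6.40 unstimulated and 8.38 with R848. Its difference was 5.96 from mouse 1 and 1.98 from mouse 2. Ncl, which encodes nucleolin, read 4.46 and 5.62 against 8.71 (3.67 ± 0.74), and Rps13, a ribosomal protein gene, read 2.40 and 3.22 against 6.46 (3.64 ± 0.37). Rps20 read 3.11 and 4.91 against 7.20. All 4 are hosts of small nucleolar RNAs in their introns, and whether a probe set read the host or the small RNA was not settled here.

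Of the remaining largest differences, Rap1b, a small GTPase of integrin control, read 4.28 and 5.63 unstimulated and 8.13 with R848. Rnf213, a large interferon-induced ubiquitin ligase, read 5.12 and 5.28 against 8.36 (3.16 ± 0.73). Ccnd2, a cyclin of the G1 phase that is prominent in B cells, read 4.48 and 4.48 against 7.59 (3.11 ± 0.81). Swap70, a Rac-binding protein of activated B cells, read 5.46 and 5.69 against 8.61 (3.04 ± 0.59). Ywhaz, a 14-3-3 protein, read 4.96 and 6.43 against 8.85. Tmem243, a membrane protein, read 4.64 and 4.94 against 7.83.

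On the lower side, genes of defined function were few. Of the 158 genes at least 2-fold below both unstimulated arrays, 105 (66.5%) were predicted loci, small RNAs, chemosensory receptors, receptor segments or pseudogenes, against 7.08% of the 1003 genes on the higher side and 13.5% of all genes tested. The lowest value of all genes tested was that of the vomeronasal receptor gene Vmn1r129, at -4.40. Genes of the kinds just listed are set aside in what follows. The largest differences below then included multicopy genes of the sex chromosomes and testis. Sly, a multicopy Y-linked gene, read 6.65 and 7.86 unstimulated and 4.57 with R848 (-2.68 ± 0.53). Btbd35f5, Btbd35f1 and Btbd35f12, members of a multicopy BTB domain family, differed by -2.44 ± 0.56 for the first and -1.88 ± 0.33 for the last, with the other between them. Btbd35f5 read 4.82 and 6.27 unstimulated and 3.11 with R848, or -1.71 from mouse 1 and -3.16 from mouse 2. It was tested only because of the unstimulated array of mouse 2. Astx5 differed by -1.85 ± 0.35. Copies of such genes can share probes, so a value cannot be given to a single copy.

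Stfa1, a stefin that inhibits cathepsins, read 5.57 and 5.75 unstimulated and 3.60 with R848 (-2.05 ± 0.28, limma adjusted p = 0.0855). Other large values, with the same kinds set aside, included those of Pla2g10os, an opposite-strand transcript, at -2.21 ± 0.46, Dcpp3, a secretory protein gene, at -1.94 ± 0.40, and the zinc finger genes Zfp972 and Zfp992, at -1.84 ± 0.38 and -1.83 ± 0.39.

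The R848 array was also compared directly with the arrays of the other stimuli, which asks whether TLR7, TLR9 and TLR3 agonists and the antibody differ. The agonists were given at single, unlike doses, so these are comparisons of the samples as treated. limma called 0 genes (0%) in each of the 3 comparisons. At an unadjusted p under 0.05, 330 genes differed from CpG B (179 higher with R848), 337 from poly I:C (173 higher) and 567 from HL7G (138 higher and 429 lower), where 556.4 would be expected by chance in each. The lowest adjusted p was 1 against CpG B, 0.734 against poly I:C and 0.93 against HL7G.

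Against CpG B, the interferon-stimulated genes had a median difference of 0.41, and 43 of 52 read higher with R848, beside 6238 of all 11127 genes tested. Cxcl10 differed by 1.04 ± 0.66, Ifih1 by 1.13 ± 0.67 and Il6 by 0.82 ± 0.33. Nfkbiz differed by -0.22 ± 0.79. The largest differences by size above CpG B included Gabarap, an autophagy protein (1.51 ± 0.31), and H4c12, a histone gene (1.51 ± 0.38), and those below included Krtap5-2, a keratin-associated protein gene (-2.30 ± 0.58).

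Against poly I:C, all 10 NF-kB genes read higher with R848 and their median difference was 0.45, beside 6539 of 11127 genes and 0.08. The chemokines went the other way, with a median of -0.34 and 2 of 9 higher. Tnf differed by -0.98 ± 0.50 and Ccl5 by -0.56 ± 0.44. The largest difference above poly I:C was that of Ddx3x, an RNA helicase (1.76 ± 0.41), and that of Hsph1, a heat shock protein, was 1.66 ± 0.39.

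Against HL7G, the cytokines and chemokines had medians of -0.49 and -0.48. Il1a differed by -1.69 ± 0.29, Tnf by -1.40 ± 0.43, Ccl5 by -1.37 ± 0.38 and Ccl3 by -1.07 ± 0.60. The interferon-stimulated genes depended on the HL7G array: 1 of 52 read higher with R848 than with HL7G in mouse 1, beside 5038 of all 11127 genes tested, and 38 of 52 read higher than with HL7G in mouse 2, beside 5490. The same held for the NF-kB genes, with 1 of 10 and 9 of 10. It also held for the IRF and STAT genes (1 and 10 of 13) and the costimulatory and activation markers (1 and 11 of 15). The cytokines (3 and 5 of 11) and chemokines (1 and 2 of 9) read mostly lower with R848 than on either HL7G array. Cd55, an inhibitor of complement, differed by -1.62 ± 0.26. It read 3.86 with R848 and 5.42 and 5.53 with HL7G. No other array reached the filter level, so Cd55 was tested only because of HL7G.

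**Figure D4:**
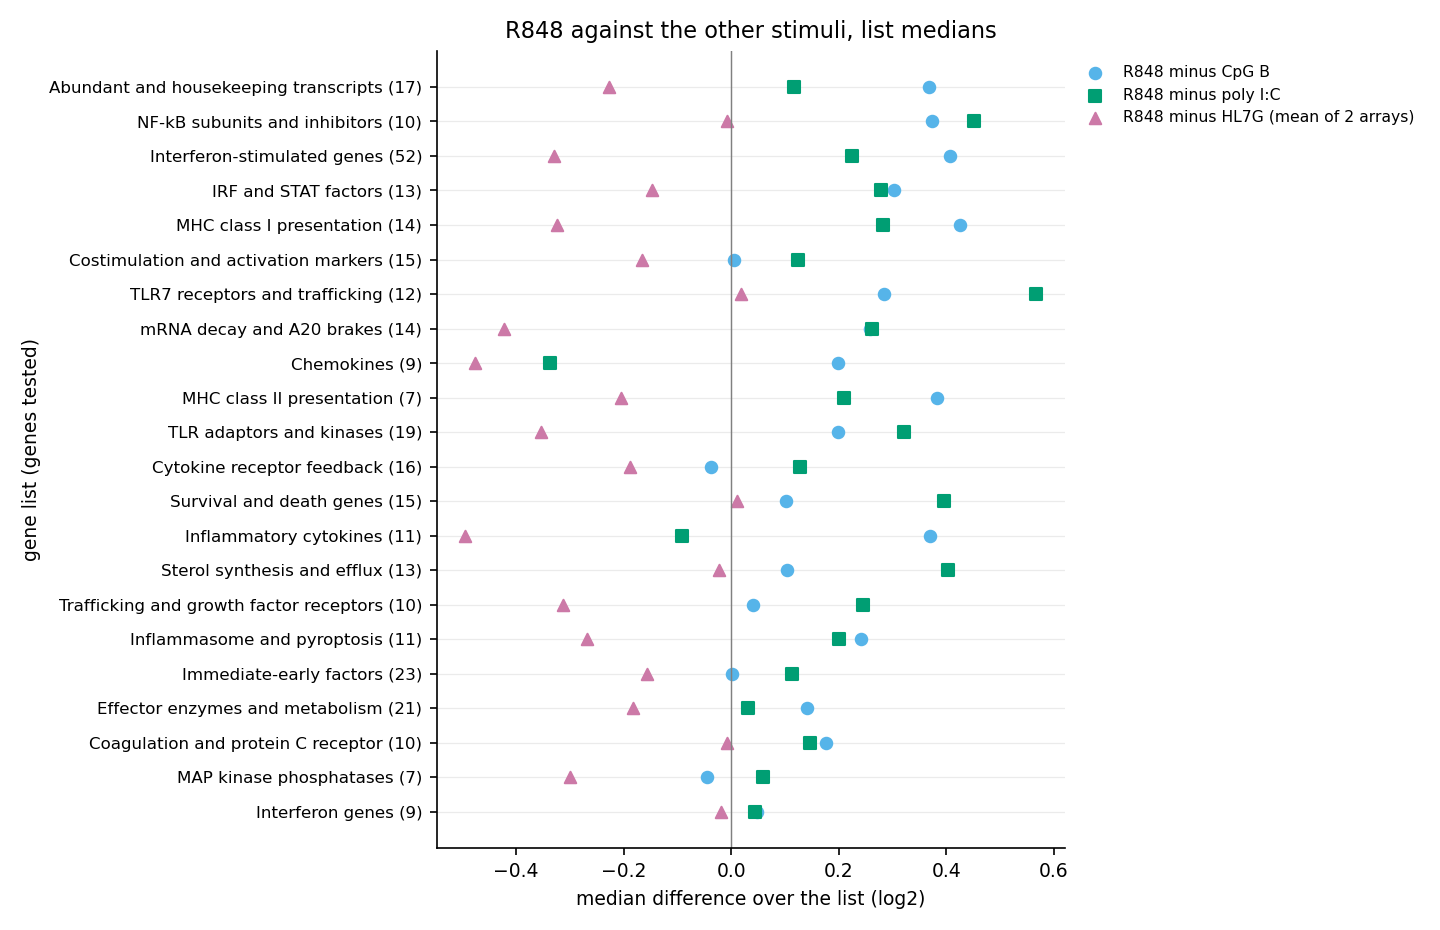
Median over each of 22 gene lists of the difference between the R848 array and the CpG B array (circles), the poly I:C array (squares) and the mean of the HL7G arrays (triangles), in log2 units on the x axis. The medians for HL7G lie below 0 for most lists, at -0.49 for the cytokines. Those for CpG B lie above 0 for most, at 0.41 for the interferon-stimulated genes. The triangles average the HL7G arrays of mouse 1 and mouse 2, which for several lists stood on different sides of R848. No gene was called in any of these comparisons.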

How the data were processed

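RNA of spleen monocytes was measured on Affymetrix Mouse Gene 2.0 ST arrays after TRIzol extraction and the WT PLUS kit, per the labels' protocols. The authors deposited log2 values, 1 per probe set and array. The submitters' processing notes name RMA, Transcriptome Analysis Console and Affymetrix Expression Console without versions. Precision is limited by how few arrays there are. The protocol's IgG condition was not analysed here.

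Of 41345 probe sets, 23521 carried 1 gene symbol in GEO's platform annotation, 1814 carried several and 16010 were not listed with a symbol. Genes were read from single-symbol probe sets, the brightest on average where a gene had several (1082 genes). A gene was tested if it reached 5 on at least 1 array, which left 11127 of 22180 genes. The build of the array design was not given in the sources used here. Coordinates are those of the RefSeq promoter table (GRCm38.p6).

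limma 3.58.1 in R 4.3.3 fitted 5 groups over 7 arrays, with 2 residual and 4.94 prior degrees of freedom. Tests were 2-sided, p-values were adjusted by the Benjamini-Hochberg method across the 11127 genes, and called means an adjusted p under 0.05. The script was tested on simulated data. The labels give arrays of 1 mouse number to 1 animal, which pairs the samples. The differences between the mice in the unstimulated and HL7G groups had r = -0.146 across genes. The p-values rest on 2 animals.

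The lists and named genes were chosen with earlier results of these data known. The rule named a fixed set of pathway genes, up to 6 members of a pathway list and 4 of a cell type list by size, and the 15 largest differences above and 10 below with the same sign against each unstimulated array, predicted loci and small RNAs apart. The rule asked for called genes. As none was called, that condition was dropped after this was seen. Other genes named, mostly the lowest or best known members of a list, were chosen after their values were seen.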

Additional observations from a re-analysis of the deposited data

How the results depend on the processing

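The count of genes called for R848 against unstimulated was 0, and it moved under these settings: it was 95 with a variance trend, 51 after cyclic loess, 576 after quantile normalization and 1542 with only the R848 and unstimulated arrays in the fit. With the mouse as a replicate block, which uses the pairing, it was 5. Leaving out 1 array gave counts from 0 to 1542. It stayed at 0 after median centring, without the level filter, with a mean level of at least 6, with the mean of all probe sets and at an adjusted p under 0.01. The direct comparisons with CpG B, poly I:C and HL7G gave 0 genes under every setting run, the block included.

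The counts of genes at least 2-fold above and below both unstimulated arrays, 1003 and 158, were checked under settings chosen after seeing the data. They were 539 and 309 after cyclic loess, 614 and 316 after quantile normalization and 423 and 56 with a mean level of at least 6, which tested 1337 genes. Leaving out 1 unstimulated array gave 1143 to 1608 above and 253 to 283 below. The median of all genes tested was 0.09, and -0.02, -0.03 and -0.07 after median centring, cyclic loess and quantile normalization.

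Of 173 named genes tested, 15 changed sign under at least 1 setting, and none of these lay 2-fold above both unstimulated arrays apart from Ccl4 (-0.002 after cyclic loess). After cyclic loess Ccl5 was -0.428, Egr1 -0.002, Ifit3 -0.609, Nr4a1 -0.044 and Spi1 -0.177. After quantile normalization Ifit3 was -0.347, Il1a -0.093 and Spi1 -0.226, and after median centring Spi1 was -0.093. With the block Egr1 was -0.028, Gbp3 -0.278, Gbp4 -0.206, Procr 0.017 and Ptgs2 0.247. Leaving out the unstimulated array of mouse 1 or of mouse 2 gave, in that order, -0.301 and 0.094 for Cd86, -0.106 and 0.386 for Csf1r, 0.061 and -0.077 for Dusp1, 0.298 and -0.061 for Egr1, -0.099 and 0.429 for Ifnar1, 0.051 and -0.058 for Procr, -0.128 and 0.022 for Ptgs2, and 0.115 and -0.092 for Spi1. The cause of these shifts was not tested. Levels under 5 on the R848 and unstimulated arrays, as for Tlr7, limit what can be read about dim genes.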
